A study of Mus musculus with 9 samples.

Results

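Neurexins, neuroligins and leucine-rich repeat transmembrane proteins (LRRTMs) are cell-surface proteins that meet across the synaptic cleft. The 9 genes of these families followed here were Nrxn2, Nrxn3, Nlgn1, Nlgn2, Nlgn3, Lrrtm1, Lrrtm2, Lrrtm3 and Lrrtm4, out of 33940 genes with a symbol in the count tables. They were chosen by family membership, and each was represented by the annotated transcript with the highest mean count over the 9 samples. The tissue was piriform cortex, the largest olfactory cortical area, of male wild-type C57BL/6 mice. The labels give the age as 8 weeks, and the methods of the study state a different one. Laser-capture micro-dissection, in which chosen areas are cut out of a tissue section with a laser, gave 3 samples of each of 3 layers lettered A, B and C. All layers came from wild-type mice of that strain, and no key from the letters to the anatomical layers I, II and III was given. The sources do not say whether the replicates of a layer came from separate animals, so the p-values below measure only the spread between these samples, which may be technical.

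Neurexins sit mainly on the presynaptic side and are made as long forms and, from an internal start within the same gene, short forms. Neuroligins and LRRTMs are mainly postsynaptic and bind neurexins. Neuroligin 1 is concentrated at excitatory synapses, neuroligin 2 at inhibitory synapses, and neuroligin 3 is found at either kind. LRRTMs organise excitatory synapses, and LRRTM4 also binds heparan sulfate proteoglycans. Transcripts of several of these genes are also made by glial cells. A transcript level in a micro-dissected layer counts RNA that lies in that layer, in cell bodies and in processes, and in such bulk samples fewer cells of a type and less RNA per cell cannot be told apart.

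All 9 genes were read on GRCm38, the assembly also called mm10. The Nrxn2 transcript ENSMUST00000137166 lies at chr19:6427937-6533217 on the plus strand, with 22 exons and 6314 bases. The Nrxn3 transcript ENSMUST00000163134 lies at chr12:88794504-90334935 on the plus strand, with 20 exons and 7922 bases. Its annotated start is the edge of an internal exon in 5 other annotated Nrxn3 transcripts, so the annotation does not mark it as the first base of the long form. Among the neuroligins, Nlgn1 was read from ENSMUST00000075054 at chr3:25431811-26133734 on the minus strand. Nlgn2 was read from ENSMUST00000108634 at chr11:69823122-69837784 on the minus strand, and Nlgn3 from ENSMUST00000151528 at chrX:101299194-101325963 on the plus strand.

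The 4 genes whose level was lower in layer A past the threshold against both other layers, as given below, were Nrxn3, Lrrtm1, Lrrtm3 and Lrrtm4. The 150 bases before an annotated start of each are printed here, and the genes were picked by those calls alone. The windows come from the RefSeq promoter table of GRCm38.p6, in which 6 of the 9 genes were found. For Nrxn3 the window before the short form is shown, and capitals mark the letters TATAAA or the reverse, TTTATA.
Nrxn3, short form, chr12:89812333-89812482, plus strand: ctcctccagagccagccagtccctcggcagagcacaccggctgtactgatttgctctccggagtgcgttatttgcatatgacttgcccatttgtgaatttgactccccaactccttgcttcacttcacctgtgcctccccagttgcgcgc
Lrrtm1, chr6:77242327-77242476, plus strand: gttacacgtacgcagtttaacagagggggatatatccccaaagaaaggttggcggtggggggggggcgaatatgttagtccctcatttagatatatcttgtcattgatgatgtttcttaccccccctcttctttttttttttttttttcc
Lrrtm3, chr10:64090256-64090405, minus strand: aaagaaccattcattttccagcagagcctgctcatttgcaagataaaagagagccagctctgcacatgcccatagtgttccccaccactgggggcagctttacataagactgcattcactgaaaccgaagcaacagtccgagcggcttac
Lrrtm4, chr6:80018727-80018876, plus strand: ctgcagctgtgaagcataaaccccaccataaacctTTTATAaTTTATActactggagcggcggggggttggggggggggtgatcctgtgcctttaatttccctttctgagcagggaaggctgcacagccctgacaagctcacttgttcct
In these windows the short Nrxn3 form had the highest GC content, 56%, with 6 CG dinucleotides, against a median of 54% and 4 over 32475 windows of the same length. Lrrtm1 had 42.7% and 4, Lrrtm3 49.3% and 3, and Lrrtm4 52% and 2. The letters TATAAA on either strand were found at 2 places in the Lrrtm4 window, 115 and 108 bases before the start, and were absent from the other windows shown. They were present in 7.55% of all windows. GGGCGG, the core of a GC box and present on either strand in 28.9% of all windows, and TGACGTCA, a cyclic AMP response element present in 1.37%, were found in none of the windows shown. The Lrrtm3 window includes 22 bases that belong to annotated exons, and no transcript in the count tables begins exactly at the start used for Lrrtm1 or Lrrtm3. These matches describe letters only.

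Of the LRRTM genes, Lrrtm1, Lrrtm2 and Lrrtm3 lie inside alpha-catenin genes. Lrrtm1 was read from ENSMUST00000020400 at chr6:77242689-77257791 on the plus strand, a transcript that the annotation classes as a target of nonsense-mediated decay and that lies inside Ctnna2 on the opposite strand. Lrrtm2 was read from ENSMUST00000091636 at chr18:35209003-35215024 on the minus strand, inside Ctnna1 on the opposite strand. Lrrtm3 was read from ENSMUST00000105439 at chr10:63928472-64090274 on the minus strand, inside Ctnna3 on the opposite strand. Lrrtm4 was read from ENSMUST00000126399 at chr6:80019011-80810141 on the plus strand. The libraries did not keep strand, so reads from exons shared by opposite strands cannot be told apart. Exon overlap covered 50.6% of the Lrrtm4 transcript, 1543 bases shared with the predicted gene Gm4409 on the opposite strand. It covered 44.8% of the Nlgn3 transcript, shared with Gm21986 on the same strand. It covered 5.54% of Nrxn3 (Gm37980), 3.28% of Nrxn2 (Gm14964) and 1.67% of Lrrtm2 (Ctnna1), all on the opposite strand.

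The values were counts of reads per annotated transcript, with totals from 23104306 to 76471683 per sample. Levels are given below as normalized CPM, CPM being counts divided by the library total and set to a common total, after scaling of that total by a TMM factor (the trimmed mean of M-values, which sets the typical transcript equal between samples). Differences are log2 fold changes with standard errors, tested by quasi-likelihood in edgeR. Each standard error was derived from that test, as the absolute log2 fold change over the square root of its F statistic. Adjusted p-values follow Benjamini and Hochberg over all 56416 tested transcripts, and 0.05 was the threshold. Mitochondrial ribosomal RNA took 55.3% to 70.2% of the counts of layer A samples, 12.8% to 28.1% of layer B and 20.5% to 57.1% of layer C. Layer A replicate 1, layer B replicate 3 and layer C replicate 2 stood apart by base composition. Their transcripts with over 60% GC lay at medians of -0.82, -0.91 and -0.69 log2 units from the other replicates of the layer, while those with under 40% GC lay at 0.32, 0.34 and 0.40.

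The layers also differed in markers of cell types, from lists chosen with earlier results of these data known, and no listed marker was at 0 throughout a layer. Markers counted here as lower or higher are those past the threshold. Of 8 general neuron markers, 7 were lower in layer A against layer B and 6 against layer C, and all 8 had negative log2 fold changes in each. Their summed level was 865 to 1436 normalized CPM for layer A, 2278 to 5942 for layer B and 2662 to 3546 for layer C. In layer A all 12 astrocyte markers exceeded either other layer past the threshold, with sums of 4991 to 10510 for layer A, 689 to 1169 for layer B and 1233 to 1697 for layer C. Against layer B all 16 markers of vessels and meninges, and against layer C 15 of them, were higher in layer A, with sums of 347 to 503, 23.3 to 75.5 and 59.9 to 84.5. Of 7 microglia markers, 5, Cx3cr1 and Csf1r among them, were higher in layer A in each comparison. Of 6 oligodendrocyte precursor markers, 6 were higher in layer A against layer B and 2, Pdgfra and Gpr17, against layer C. Markers are named where few passed, after their values were seen. Among 8 oligodendrocyte markers, Cnp alone passed the threshold, higher in layer A against layer B. Among 8 GABAergic neuron markers, Gad2 was higher in layer A against layer B, and Sst and Lhx6 were lower against layer C. Over the most counted transcript of each tested gene, 13.2% were higher and 7.65% lower in layer A against layer B. Against layer C these shares were 9.33% and 5.46%. A count of 1 higher of 8 markers, as for Cnp and for Gad2, was near the background. Among 5 glutamatergic markers, Camk2a was higher in layer A in each comparison, Neurod2 was lower in each, Tbr1 was lower against layer B and Neurod6 against layer C. The part of this makeup in the differences below was not tested, and values scaled to the neuron markers are given after the genes.

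The first question was how these synaptic adhesion genes differed between layer A and the other layers. Against layer B, 5 of the 9 genes were lower in layer A past the threshold (Nrxn3, Nlgn1, Lrrtm1, Lrrtm3 and Lrrtm4) and none was higher, where 5.83% of all tested transcripts were lower and 10.7% were higher. Over the most counted transcript of each gene, as used for the 9 genes, these shares were 7.65% and 13.2%. Against layer C, 5 were lower (Nrxn3, Lrrtm1, Lrrtm2, Lrrtm3 and Lrrtm4) and none was higher, where 4.35% of all tested transcripts were lower and 6.98% were higher, and 5.46% and 9.33% of the most counted ones. The comparisons share the layer A samples. All 9 log2 fold changes were negative in each under TMM scaling, whereas 4 and 3 were negative and none was called once libraries were scaled to neuron markers, as given after the genes. The medians under TMM were -0.95 against layer B and -0.99 against layer C, beside -0.12 and -0.01 over all tested transcripts. In each comparison 7 genes had every layer A sample below every sample of the other layer, which held for 15.1% of all tested transcripts (18.9% of the most counted ones) against layer B and 14.5% (16.6%) against layer C. The exceptions were Nrxn2 and Nlgn2 in each.

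**Figure D1:**
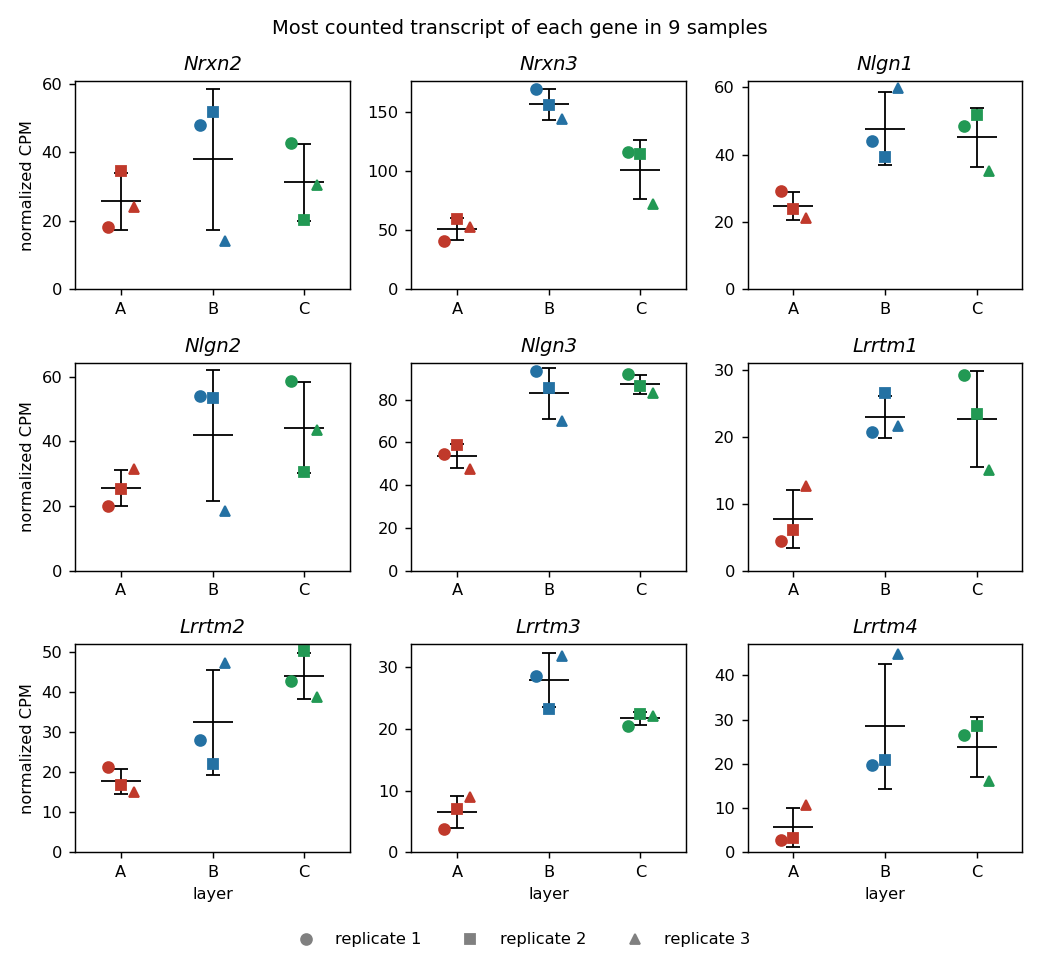
Normalized CPM (y axis, linear, from 0) of the most counted transcript of each gene in layers A, B and C (x axis). Coloured symbols are the 3 replicates, horizontal lines the mean and error bars the SD (n = 3), and the layer A samples lie below all other samples except for Nrxn2 and Nlgn2, where layer B replicate 3 is the lowest of all samples.

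**Figure D2:**
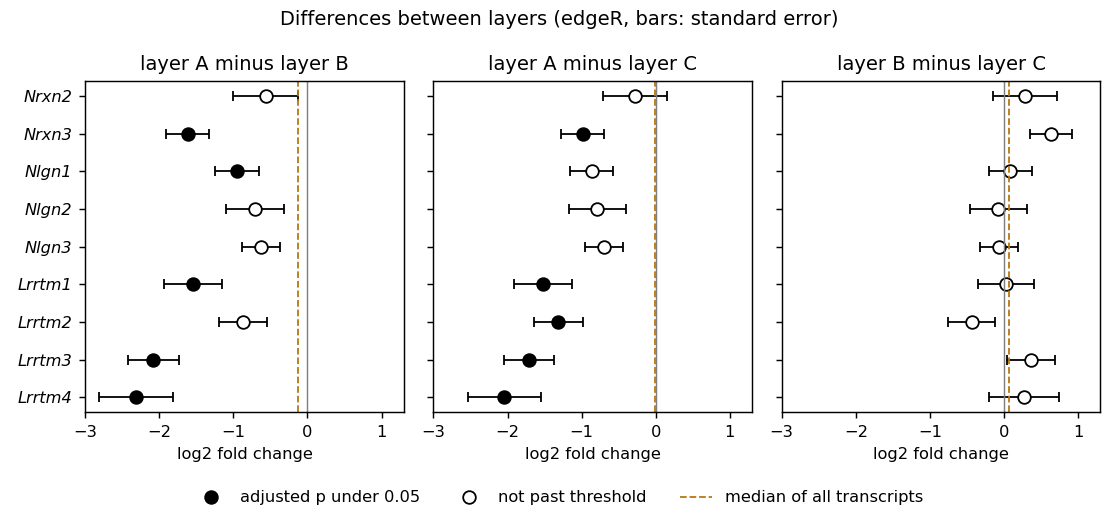
Log2 fold change (x axis) of each gene between layers A and B, A and C, and B and C, with standard errors as bars. Filled points passed an adjusted p of 0.05, and the dashed line is the median of all tested transcripts. All points lie left of 0 in the panels of layer A under TMM scaling (not under scaling to neuron markers), and no point is filled in the panel of layers B and C.

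Among the presynaptic neurexins, Nrxn3 was lower in layer A against both other layers under TMM scaling. It was not called under scaling to neuron markers, as given after the genes. Normalized CPM were 41.0, 59.5 and 52.4 for the layer A samples, 169, 156 and 143 for layer B, and 116, 114 and 72.2 for layer C, each in the order of the replicates. The layers did not overlap, with layer B the highest and layer A the lowest, though layers B and C did not differ past the threshold. The level in layer A was 32.6% of the layer B level (log2 fold change -1.62, standard error 0.291, edgeR adjusted p = 0.00176). Against layer C it was 50.5%, a log2 fold change of -0.99 with a standard error of 0.287 and an edgeR adjusted p of 0.0374. The second call was lost without any 1 of 7 libraries. The edgeR adjusted p was 0.137, 0.0710 and 0.0740 without layer A replicates 1, 2 and 3, 0.0622 without layer B replicate 1, at the threshold without layer B replicate 2, and 0.184 and 0.111 without layer C replicates 1 and 2.

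The 10 other Nrxn3 transcripts in the tables were all tested. Of these, 8 were lower in layer A against layer B past the threshold and 3 against layer C. One of them, ENSMUST00000110130, is a short form that begins at the start printed above, with 7 exons and 3654 bases. It had a log2 fold change of -1.70 against layer B (edgeR adjusted p = 0.00331) and of -0.91 against layer C (edgeR adjusted p = 0.0937). The ratio of the count of the short form to that of the long one, each counted separately, was 84.1%, 101% and 86.0% for layer A, 105%, 104% and 78.6% for layer B, and 88.5%, 92.5% and 74.8% for layer C. These ratios overlapped between all layers. A two-sided exact permutation test of the log2 ratio gave p = 0.8 for layer A against B, 0.6 for A against C and 0.4 for B against C, in a design of 3 against 3 that cannot go below 0.1. How reads that fall on several transcripts were divided is not given in the sources used here, so these ratios do not measure promoter use directly.

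Nrxn2, the other neurexin followed, had overlapping layers. Normalized CPM were 18.3, 34.7 and 24.0 for the layer A samples, 47.9, 51.7 and 14.1 for layer B, and 42.8, 20.3 and 30.4 for layer C. Layer B held both the highest sample and the lowest, replicate 3. The log2 fold change was -0.56 with a standard error of 0.436 against layer B (edgeR adjusted p = 0.435) and -0.28 with a standard error of 0.435 against layer C (edgeR adjusted p = 0.761). None of the 14 other Nrxn2 transcripts passed the threshold in either comparison. The transcript has 61.8% GC, and layer B replicate 3 lay at -1.82 log2 units and layer C replicate 2 at -0.83 from the other replicates of their layers. With these 2 libraries left out, a choice made after seeing the data, the log2 fold change was -0.95 against layer B (edgeR adjusted p = 0.0360) and -0.51 against layer C (edgeR adjusted p = 0.293). Without layer B replicate 3 alone it was -0.90 against layer B (edgeR adjusted p = 0.0763). With all libraries kept and a GC trend removed from each, it was -0.35 against layer B (edgeR adjusted p = 0.498) and -0.20 against layer C (edgeR adjusted p = 0.754).

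Among the postsynaptic neuroligins, Nlgn1 was lower in layer A against layer B. Normalized CPM were 29.3, 23.8 and 21.1 for the layer A samples, 44.0, 39.4 and 59.9 for layer B, and 48.4, 51.7 and 35.2 for layer C. Every layer A sample lay below all others, while layers B and C overlapped. Its log2 fold change was -0.95 with a standard error of 0.294 against layer B (edgeR adjusted p = 0.0373) and -0.87 with a standard error of 0.293 against layer C (edgeR adjusted p = 0.0709). Of the 9 fits that left out 1 library, the one without layer C replicate 2 kept the call against layer B. In the others the edgeR adjusted p was 0.0527, 0.116 and 0.111 without layer A replicates 1, 2 and 3, 0.0975, 0.0501 and 0.0999 without layer B replicates 1, 2 and 3, and 0.0794 and 0.0520 without layer C replicates 1 and 3. Against layer C it passed without layer B replicate 3, at 0.0320.

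Nlgn2, the neuroligin of inhibitory synapses, shared the uneven replicates of Nrxn2. Normalized CPM were 20.1, 25.4 and 31.4 for the layer A samples, 54.0, 53.3 and 18.6 for layer B, and 58.6, 30.7 and 43.4 for layer C. Layer B replicate 3 was the lowest of all samples, and the other layer B samples lay above all of layer A. The log2 fold change was -0.71 with a standard error of 0.389 against layer B (edgeR adjusted p = 0.250) and -0.79 with a standard error of 0.390 against layer C (edgeR adjusted p = 0.232). The transcript has 60.7% GC, and layer B replicate 3 lay at -1.53 log2 units from the other replicates. Without that library the log2 fold change against layer B was -1.01 (edgeR adjusted p = 0.0302), and without layer C replicate 2 as well it was -1.06 (edgeR adjusted p = 0.0140) against layer B and -0.99 (edgeR adjusted p = 0.0272) against layer C. With all libraries kept and a GC trend removed from each, neither call was made, at -0.54 against layer B (edgeR adjusted p = 0.225) and -0.71 against layer C (edgeR adjusted p = 0.124).

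Nlgn3 had the tightest replicates of the neuroligins. Normalized CPM were 54.4, 59.0 and 47.6 for the layer A samples, 93.6, 85.3 and 70.1 for layer B, and 91.8, 86.4 and 83.1 for layer C. Layer A lay below all other samples, and layers B and C overlapped. The log2 fold change was -0.63 with a standard error of 0.261 against layer B (edgeR adjusted p = 0.119) and -0.70 with a standard error of 0.261 against layer C (edgeR adjusted p = 0.102), and neither passed the threshold. Gm21986, which shares 3823 exonic bases with Nlgn3 on the same strand, had log2 fold changes of -0.68 against layer B (edgeR adjusted p = 0.129) and -0.73 against layer C (edgeR adjusted p = 0.121). Reads on the shared bases cannot be assigned to 1 gene of this pair. Of the 9 other neuroligin transcripts in the tables, none passed the threshold in either comparison, and all 9 had negative log2 fold changes. The range was -1.32 to -0.61 against layer B and -1.19 to -0.24 against layer C.

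**Figure D3:**
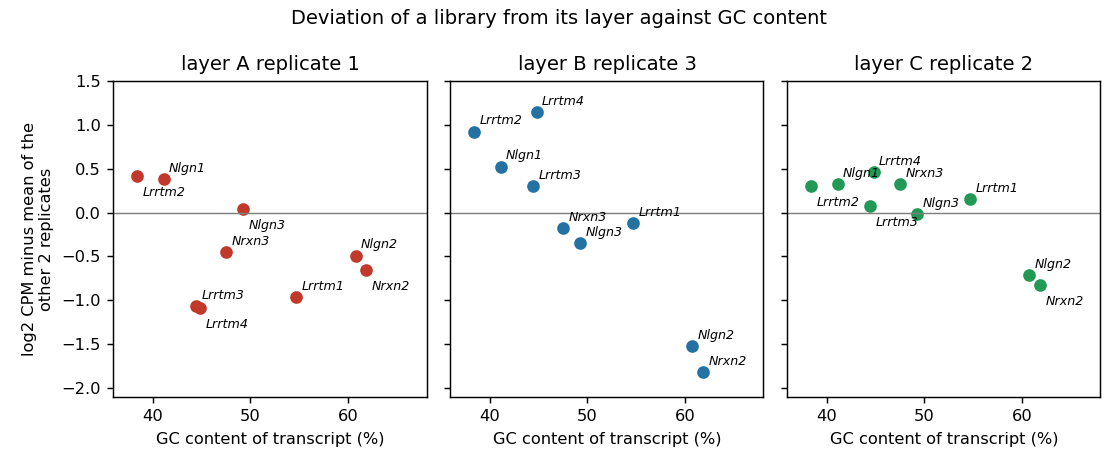
Deviation of 1 library from the mean of the other 2 replicates of its layer (y axis, log2 normalized CPM) against the GC content of the transcript (x axis, percent), for the 9 genes in layer A replicate 1, layer B replicate 3 and layer C replicate 2. Nrxn2 and Nlgn2, the genes with over 60% GC, are the lowest points in layer B replicate 3, at -1.82 and -1.53, and in layer C replicate 2, at -0.83 and -0.72. In layer A replicate 1 the lowest points are Lrrtm4, Lrrtm3 and Lrrtm1, at -1.09, -1.07 and -0.96, below Nrxn2 at -0.66 and Nlgn2 at -0.49.

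Among the LRRTM genes, Lrrtm3 and Lrrtm4 had the largest log2 fold changes of the set against either layer. Lrrtm4, whose protein binds neurexins and heparan sulfate proteoglycans, had normalized CPM of 2.79, 3.34 and 10.7 in the layer A samples, 19.7, 20.9 and 44.9 in those of layer B, and 26.6, 28.6 and 16.1 in those of layer C. Layer A replicate 3 was the highest of its layer and still below every sample of layers B and C, which overlapped. The log2 fold change was -2.31 with a standard error of 0.499 against layer B (edgeR adjusted p = 0.00543), a level 19.7% of that in layer B. Against layer C it was -2.04 with a standard error of 0.495 (edgeR adjusted p = 0.0162). Without layer A replicate 3 the log2 fold changes were -3.19 against layer B (edgeR adjusted p = 0.00136) and -2.93 against layer C (edgeR adjusted p = 0.00504). The call against layer C was lost without layer A replicate 1 or 2 (edgeR adjusted p = 0.0769 and 0.0781) and without layer C replicate 1 or 2 (0.0722 and 0.0566). All 7 other Lrrtm4 transcripts were lower in layer A past the threshold in each comparison.

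Gm4409, the predicted gene on the opposite strand that shares 1543 exonic bases with Lrrtm4, had the closest pattern to Lrrtm4 of 15170 genes. Its normalized CPM were 3.65 ± 2.70 (SD, n = 3) for layer A, 16.7 ± 3.75 for layer B and 15.9 ± 5.28 for layer C. Its log2 fold change was -2.15 against layer B (edgeR adjusted p = 0.00530) and -2.08 against layer C (edgeR adjusted p = 0.0111). Without strand, the counts of this pair cannot be told apart over the shared bases.

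Lrrtm3, an LRRTM of excitatory synapses, was lower in layer A against both other layers. Normalized CPM were 3.73, 6.95 and 8.93 for the layer A samples, 28.6, 23.2 and 31.8 for layer B, and 20.5, 22.4 and 22.1 for layer C. No layers overlapped, with layer B above layer C and layer C above layer A. Layers B and C did not differ past the threshold (log2 fold change 0.36, standard error 0.325, edgeR unadjusted p = 0.280). All layer B samples lay above all layer C samples for 4.66% of the most counted transcripts. The log2 fold change of layer A was -2.08 with a standard error of 0.342 against layer B (edgeR adjusted p = 0.00100). Against layer C it was -1.71 with a standard error of 0.338 (edgeR adjusted p = 0.00626). Each call held when any 1 of the 9 libraries was left out. The 3 other Lrrtm3 transcripts were lower in layer A past the threshold in each comparison.

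Lrrtm1, which acts at excitatory synapses as well, had normalized CPM of 4.49, 6.08 and 12.7 in the layer A samples, 20.7, 26.5 and 21.6 in those of layer B, and 29.3, 23.4 and 15.0 in those of layer C. Layer A lay below all other samples, and layers B and C overlapped. Its log2 fold change was -1.55 with a standard error of 0.392 against layer B (edgeR adjusted p = 0.0133) and -1.52 with a standard error of 0.392 against layer C (edgeR adjusted p = 0.0215). The first call was lost without layer A replicate 1 or 2 (edgeR adjusted p = 0.0657 and 0.0677). The second was lost without layer A replicate 1 or 2 (0.0921 and 0.0956) and without layer C replicate 1 or 2 (0.119 and 0.0589). Of 3 other Lrrtm1 transcripts, 2 were lower in layer A past the threshold in each comparison.

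Lrrtm2, the LRRTM with 1 transcript in the tables, had normalized CPM of 21.3, 16.8 and 15.1 in the layer A samples, 28.1, 22.03 and 47.2 in those of layer B, and 42.9, 50.2 and 38.8 in those of layer C. Layer A lay below all other samples, by a small margin to layer B replicate 2. The log2 fold change was -1.31 with a standard error of 0.325 against layer C (edgeR adjusted p = 0.0180) and -0.87 with a standard error of 0.322 against layer B (edgeR adjusted p = 0.0782). The call against layer C was lost without layer A replicate 2 or 3 (edgeR adjusted p = 0.0714 and 0.0623) and without layer C replicate 1 or 2 (0.0795 and 0.0605). Ctnna1, which encodes an alpha-catenin and overlaps 95 exonic bases of Lrrtm2, was higher in layer A, with log2 fold changes of 2.10 against layer B (edgeR adjusted p = 0.00962) and 1.95 against layer C (edgeR adjusted p = 0.0212). It was at 31.2 ± 12.1 (SD, n = 3) normalized CPM for layer A, 7.26 ± 6.34 for layer B and 8.12 ± 1.61 for layer C.

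Over the set, the 46 other transcripts of the 9 genes were all tested. In layer A, 20 of them were lower than in layer B past the threshold and none was higher, and 15 were lower than in layer C and none was higher. Of all tested transcripts, 5.83% were lower and 10.7% higher against layer B, and 4.35% and 6.98% against layer C. Transcripts of 1 gene share exons and reads, so these counts are not independent of those above.

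The second question was whether layers B and C differed. No gene of the set passed the threshold, and by edgeR's quasi-likelihood test none of all tested transcripts did (0%), against 2316 at an unadjusted p under 0.05. DESeq2 called 130 transcripts, none of them 1 of the 9 followed. Nrxn3 was the 1 gene of the set under an unadjusted p of 0.05 in edgeR's quasi-likelihood test, at 0.0421, with a log2 fold change of layer B over layer C of 0.63 and a standard error of 0.284. Over all tested transcripts the share under that p was 4.11%, and over the most counted ones 4.94%. Nrxn3 and Lrrtm3 were the genes with all layer B samples above all layer C samples, which held for 3.92% of all tested transcripts and 4.66% of the most counted ones. The log2 fold change of Lrrtm3 was 0.36 with a standard error of 0.325, and that of Lrrtm2, the most negative, was -0.44 with a standard error of 0.319. The median over the 9 genes was 0.08, beside 0.07 over all tested transcripts. When all 3 layers were tested at once for a difference, 5 genes passed (Nrxn3, Lrrtm1, Lrrtm2, Lrrtm3 and Lrrtm4), where 14.3% of all tested transcripts and 18.5% of the most counted ones did.

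Levels of different genes were compared per kilobase of transcript. In layer A the means ran from 6.43 normalized CPM per kb for Nrxn3, 6.28 for Nlgn3 and 5.68 for Nlgn1 to 2.62 for Lrrtm1, 1.84 for Lrrtm4 and 1.68 for Lrrtm3. Each neighbour in this order overlapped the next over the replicates. In layer B, Nrxn3 stood first at 19.7 normalized CPM per kb and did not overlap the next gene, Nlgn1, at 11.0. Nlgn3 at 9.72 and Lrrtm4 at 9.34 followed, the latter with replicates from 6.45 to 14.7 of which layer B replicate 3 was the highest, and Nrxn2 at 6.00 and Lrrtm2 at 5.72 closed the order, all overlapping their neighbours. In layer C the order ran from Nrxn3 at 12.7, Nlgn1 at 10.3 and Nlgn3 at 10.2 to Lrrtm3 at 5.56 and Nrxn2 at 4.94, with every neighbour overlapping. By the length of the transcript followed, neurexin 3 and neuroligins 1 and 3 held the first 3 places in each layer. Annotated transcripts of 1 gene differ in length, from 355 to 5568 bases for Nlgn2 and from 4272 to 4359 for Nlgn1. The order therefore depends on the length chosen for each gene, and the levels of Nlgn3 and Lrrtm4 may include reads of the genes that overlap them.

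**Figure D4:**
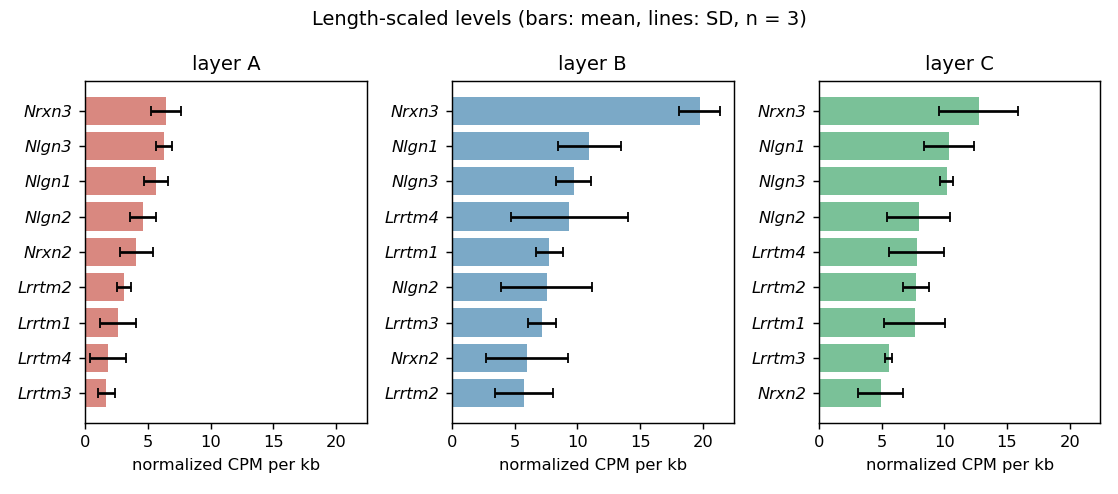
Mean length-scaled level (x axis, normalized CPM per kilobase of transcript, linear from 0) of each gene, sorted from top to bottom within each layer, with the SD over 3 replicates as lines. Nrxn3 leads in each layer and stands clear of the next gene in layer B, at 19.7 against 11.0.

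For each gene, the 2 other genes of 15170 with the most similar pattern were sought by the root mean square difference of centred log2 normalized CPM over the 9 samples, a description with no test. The smallest differences were 0.08 for Nlgn3 with Glg1 and 0.11 with Rasal2, and 0.10 for Nlgn1 with Pkia and 0.11 with Cdkl2. Nrxn3 lay nearest to 2010300C02Rik at 0.13. Lrrtm2 lay nearest to Reps2 at 0.13 and Lonrf1 at 0.15, and Lrrtm3 to Mal2 at 0.14 and Enc1 at 0.15. Lrrtm1 lay nearest to Gm6374 at 0.19 and Sidt1 at 0.20, and Lrrtm4 to Gm4409 at 0.19 and Gsg1l at 0.21. Nrxn2 lay nearest to Gtf2ird1 at 0.17 and Gm12316 at 0.19, and Nlgn2 to Rusc2 at 0.21. Within the set, Nlgn1 and Lrrtm2 were the closest pair at 0.29, followed by Nrxn2 and Nlgn2, the GC-rich genes, at 0.30. Nrxn2 and Lrrtm4 were the farthest apart, at 1.42.

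The binding partners of these proteins were taken from 5 lists of 85 genes, of which 82 were tested. Against layer B, 28 of the 82 were lower in layer A past the threshold and 5 were higher, and against layer C, 27 were lower and 1 was higher. Of the most counted transcripts of all genes, 7.65% were lower and 13.2% higher against layer B, and 5.46% and 9.33% against layer C. The median log2 fold changes were -0.91 and -0.89, beside -0.12 and -0.01 over all tested transcripts. Under scaling to neuron markers the counts were 0 lower and 25 higher against layer B and 4 lower and 22 higher against layer C, with medians of 0.55 and 0.37 beside 1.29 and 1.28 over all. The list counts below are therefore relative to TMM scaling, and they count genes past the threshold. The lists held 1 gene, Syt1, that is also in the neuron marker list above.

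Among 21 tested ligands and regulators of neurexins and neuroligins, 3 were lower in layer A against layer B, 2 were higher, and 5 were lower against layer C. Of the most counted transcripts of all genes, 7.65% were lower and 13.2% higher against layer B, and 5.46% were lower against layer C. The higher count of this list was thus near the background. Cbln2, a secreted cerebellin that bridges neurexins to postsynaptic receptors, had a log2 fold change of -2.09 against layer B (edgeR adjusted p = 0.00942). Clstn1, a calsyntenin, had -1.42 (edgeR adjusted p = 0.00878). C1ql1, a secreted C1q-like ligand, was higher in layer A at 1.69 (edgeR adjusted p = 0.0190). The third lower gene was Clstn2, and those lower against layer C were Nxph2, Nxph4, C1ql3, Clstn1 and Clstn2, named after their values were seen. Nxph2 and Nxph4 were barely detected in layer A, at means of 0.033 and 0.10 normalized CPM, and low in layer C, at 1.42 and 1.73.

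Inside the presynaptic terminal, 4 of 8 tested partners of neurexins were lower in layer A against layer B and 1 was higher. Against layer C, 4 were lower and none was higher. Over the most counted transcripts of all genes, 7.65% were lower against layer B and 5.46% against layer C. The share of higher genes over all was 13.2% against layer B, so 1 higher gene of 8 was near the background. Lin7b, a small PDZ adaptor, had a log2 fold change of -2.48 against layer B (edgeR adjusted p = 0.00398). Apba1, the adaptor Mint1, was higher in layer A at 1.18 (edgeR adjusted p = 0.0172). Others past the threshold, named after their values were seen, included Apba2 and Syt1 against layer B and Lin7a, Lin7b and Syt1 against layer C.

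Of 17 tested postsynaptic scaffold partners of neuroligins and LRRTMs, 4 were lower and 2 were higher in layer A against layer B, and 4 were lower and 1 was higher against layer C. Over the most counted transcripts of all genes, 7.65% were lower against layer B and 5.46% against layer C. The share of higher genes over all was 13.2% against layer B and 9.33% against layer C, so the higher counts of this list were near the background. The median log2 fold changes were -0.22 and -0.25. Magi1 had -1.73 (edgeR adjusted p = 0.00418) and Dlg3, the scaffold SAP102, had -1.67 (edgeR adjusted p = 0.00245) against layer B. Shank1 was higher in layer A at 1.92 (edgeR adjusted p = 0.00107) against layer B and 1.05 (edgeR adjusted p = 0.0403) against layer C, and Dlg2, the scaffold PSD-93, was higher at 1.49 (edgeR adjusted p = 0.00540) against layer B. Homer1 and Dlgap2, named after their values were seen, were lower in each comparison.

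Of 29 other trans-synaptic adhesion genes, 14 were lower in layer A against layer B and 10 against layer C, and none was higher. Over the most counted transcripts of all genes, 7.65% were lower and 13.2% higher against layer B, and 5.46% and 9.33% against layer C. Lrfn2, a leucine-rich repeat adhesion protein of the SALM family, had a log2 fold change of -2.39 (edgeR adjusted p = 0.00491) and Slitrk1, a postsynaptic ligand of receptor tyrosine phosphatases, had -1.92 (edgeR adjusted p = 0.00140) against layer B. Among 7 contactin-associated genes, relatives of the neurexins, 3 were lower in layer A against layer B and 4 against layer C. The shares over all genes just given apply to these counts as well. Cntnap5a had -1.71 (edgeR adjusted p = 0.0101) and Cntnap5b had -1.41 (edgeR adjusted p = 0.0270) against layer B. Cntnap1, and against layer C also Cntnap3, completed these counts and were named after their values were seen. Cntnap3 was low, at means of 0.25 normalized CPM in layer A and 2.53 in layer C.

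The difference in neuron markers was set beside that of the genes by an alternative scaling, chosen after seeing the data, in which library sizes followed 8 neuron markers in place of TMM. On that scale no gene of the set passed the threshold in any comparison. The median of all tested transcripts moved to 1.29 against layer B and 1.28 against layer C, where 42.8% of them were called in the first comparison. Relative to the neuron markers, the log2 fold changes against layer B were 0.72 for Nrxn2, 0.58 for Nlgn1, 0.54 for Nlgn2, 0.79 for Nlgn3 and 0.71 for Lrrtm2. They were -0.21 for Nrxn3, -0.29 for Lrrtm1, -0.70 for Lrrtm3 and -0.94 for Lrrtm4 (edgeR adjusted p = 0.0901). Against layer C, Lrrtm1, Lrrtm3 and Lrrtm4 stayed negative at -0.36, -0.50 and -0.97 (edgeR adjusted p = 0.0841 for Lrrtm4), and the other genes were at or above 0.01.

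**Figure D5:**
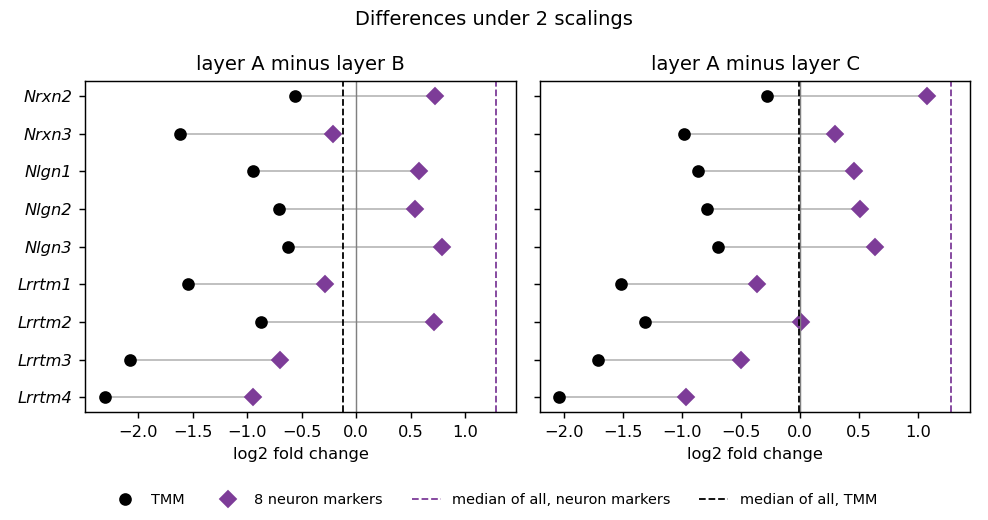
Log2 fold change (x axis) of each gene for layer A minus layer B and layer A minus layer C under TMM scaling (circles) and under scaling to 8 neuron markers (diamonds), with dashed lines for the median of all tested transcripts under each. Under neuron scaling the points move right by over 1 unit, and Lrrtm1, Lrrtm3 and Lrrtm4 lie left of 0 in each panel.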

How the data were processed

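RNA of micro-dissected layers was amplified with the Ovation system and sequenced from strand non-specific paired-end libraries. Alignment by the authors was to mm10, with Bowtie. The deposited values are raw counts for each Ensembl transcript, not normalized. HTSeq 0.5.3 and bcl2fastq 1.8.4 are named in the submitters' processing notes. Reads carried no molecular identifiers, so counting precision says nothing of amplification. At a floor of 3 counts all 9 genes were detected in every sample.

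Of 95533 identifiers, 82779 (86.6%) were found in GENCODE M21 (GRCm38). The 56416 transcripts that reached 10 counts in 3 or more samples were fitted with all 9 samples and layer as the only term in edgeR 4.0.16 (R 4.3.3), TMM normalization, quasi-likelihood F-test and Benjamini-Hochberg adjustment. The procedure was run on simulated counts in which few transcripts changed, as many up as down. That check did not cover the choice of scaling. Log2 CPM for pattern likeness used a prior count of 2. The genes named were the 9 themselves, the 2 of each partner list with the largest changes in each direction past the threshold between layers A and B, and the 2 nearest in pattern, and some genes that these rules pick are not reported here. The genes and lists were chosen with earlier results of these data known. Alternatives were other scalings, DESeq2 1.42.0, other filters, a replicate block, only the 6 samples compared, sums by gene, the highest transcript of each gene, no mitochondrial transcripts and each library left out. Removal of a GC trend, the joint omission of layer B replicate 3 and layer C replicate 2, and scaling to neuron markers were chosen after seeing the data.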

Additional observations from a re-analysis of the deposited data

How the results depend on the processing

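Over the alternatives, the calls against layer B of Nrxn3, Lrrtm3 and Lrrtm4 and the call against layer C of Lrrtm3 were lost only under scaling to 8 neuron markers, among 23 alternatives for each. In that alternative the count of the 9 genes past the threshold was 0 in each comparison, and 24131, 22656 and 0 transcripts passed for layers A and B, A and C, and B and C, with 23616 for any difference. Log2 fold changes that changed sign there were 0.72 for Nrxn2, 0.58 for Nlgn1, 0.54 for Nlgn2, 0.79 for Nlgn3 and 0.71 for Lrrtm2 against layer B, 1.08 for Nrxn2, 0.30 for Nrxn3, 0.46 for Nlgn1, 0.51 for Nlgn2, 0.63 for Nlgn3 and 0.012 for Lrrtm2 against layer C, and, for layer B against C, -0.12 for Nlgn1, -0.073 for Lrrtm1 and -0.026 for Lrrtm4. With total counts alone, 9 genes passed against layer B and 7 against layer C, with 16974 transcripts in the first comparison and the median of all transcripts at -1.19 and -0.76. Tables of 1 row per gene held fewer features, and 3562, 2621, 1 and 3152 genes passed for A and B, A and C, B and C and any difference with counts summed by gene, and 3689, 2773, 4 and 3301 with the highest transcript of each gene. Between layers B and C, DESeq2 called 130 transcripts, the table without a filter 10, and the fit without layer B replicate 3 and layer C replicate 2 called 13, with 12470 for any difference. No gene of the set passed between layers B and C under any alternative.

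Leaving out each library in turn gave 3 to 5 of the 9 genes against layer B, 1 to 6 against layer C and 2 to 5 for any difference. The lowest counts were 3 against layer B without layer A replicate 1 or 2, and 1 against layer C without layer A replicate 2, layer C replicate 1 or layer C replicate 2. Over all transcripts the counts ranged from 5570 to 11337, from 1369 to 9740, from 0 to 17 and from 4070 to 11312 for layers A and B, A and C, B and C, and any difference. Sign changes without 1 library were 0.013 for Nrxn2 against layer C without layer C replicate 1 and, between layers B and C, -0.031 for Nrxn2 and -0.11 for Lrrtm1 without layer B replicate 2, -0.16 for Nlgn1, 0.23 for Nlgn2 and -0.27 for Lrrtm4 without layer B replicate 3, 0.13 for Nlgn2 without layer C replicate 1, and -0.10 for Nlgn1 and -0.23 for Lrrtm1 without layer C replicate 3. Over all libraries left out, Nrxn2 against layer C ranged from -0.56 to 0.013, and between layers B and C the ranges were -0.031 to 0.63 for Nrxn2, -0.16 to 0.19 for Nlgn1, -0.34 to 0.23 for Nlgn2, -0.23 to 0.22 for Lrrtm1 and -0.27 to 0.44 for Lrrtm4. Other sign changes between layers B and C were 0.28 for Nlgn2 and 0.29 for Nlgn3 with total counts, -0.0069 for Lrrtm1 with upper-quartile factors, and -0.0048 for Nlgn1, 0.071 for Nlgn2, 0.031 for Nlgn3 and -0.072 for Lrrtm4 without layer B replicate 3 and layer C replicate 2. The cause of these changes was not tested.

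With the replicate number as a block, 4 genes passed in each comparison with layer A, and Nlgn1 against layer B (edgeR adjusted p = 0.0531) and Nrxn3 against layer C (edgeR adjusted p = 0.0560) were lost, with no other call among the 9 genes changed. Samples of the same number deviated together with correlations from -0.186 to 0.243, so the numbers were not taken to pair the samples. A GC trend removed per library gave 6 genes against each of layers B and C. Depth did not limit detection, and the lowest count of a followed transcript was 33, for Lrrtm4 in layer A.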
